A study of Mus musculus with 12 samples.

Results

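Cblb, Crcp, Baz2b, Bcl3 and Pfkfb3 are 5 genes of mouse liver that changed expression between fasting and re-feeding and that each carried 3 or 4 separate CREB binding sites. The genes were chosen by their number of sites and the size of their expression change, both known from earlier results of these data. A site was counted for a gene where its interval in the final CREB peak lists contained a CREB peak centre that the study's gene table lists for that gene, and this gave 18 sites of 7547 in all. In that table a site belongs to a gene when it lies in the gene body or in the stretch upstream of its start. Over all genes listed as induced or repressed by fasting, 3 genes had 4 sites, 22 had 3 sites and 95 had 2 sites. Cblb, Crcp and Baz2b are the 3 genes with 4 sites, and Bcl3 and Pfkfb3 are among the 7 repressed genes with at least 3. The arrays of the study listed Cblb, Crcp and Baz2b as higher in fasted liver and Bcl3 and Pfkfb3 as lower, and only these directions are used here.

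CREB was immunoprecipitated from whole livers of male C57BL/6J mice aged 8 to 12 weeks (strain C57/Bl6 in the labels), with an antibody to CREB-1 that does not distinguish its phosphorylated form, and the bound DNA was sequenced (ChIP-seq). All 10 mice went without food for 24 hours. The 5 fasted mice were taken at zeitgeber time 3, and the 5 re-fed mice had food for 2 further hours and were taken at zeitgeber time 5, so that feeding and hour of day cannot be told apart. Peak lists hold no expression values, so the labelled tissue could not be checked against marker genes. Peaks were called on the pooled reads of the 5 livers of a condition, so each value below is one pooled value without a replicate error.

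CREB binds as a dimer to the cAMP response element (CRE), a short palindrome, or to one arm of it. In the fasted liver glucagon raises cAMP, protein kinase A phosphorylates CREB, and phosphorylated CREB recruits co-activators that switch on genes of gluconeogenesis. Binding of CREB to a gene and a change in that gene's expression are separate measurements, and a peak shows only the former.

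The promoter windows of Baz2b and Pfkfb3 are shown because intervals of listed sites covered their annotated transcription starts. The windows are those of RefSeq in build GRCm38.p6, run 5′ to 3′ from 250 bases before the start to 50 bases from the start onwards, and are in lower case with exact matches to TGACGTCA (the full CRE), TGACG or CGTCA (one arm of it) in capitals. Both strands were searched, and a full CRE contains both arms, which overlap within it.
Baz2b, chr2:60125691-60125990, minus strand: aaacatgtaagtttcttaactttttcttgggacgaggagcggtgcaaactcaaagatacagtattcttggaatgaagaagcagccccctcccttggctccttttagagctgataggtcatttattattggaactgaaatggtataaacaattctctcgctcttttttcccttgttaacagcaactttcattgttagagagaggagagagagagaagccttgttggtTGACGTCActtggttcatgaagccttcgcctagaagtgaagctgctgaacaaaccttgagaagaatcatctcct
Pfkfb3, start of the longest transcript, chr2:11553880-11554179, minus strand: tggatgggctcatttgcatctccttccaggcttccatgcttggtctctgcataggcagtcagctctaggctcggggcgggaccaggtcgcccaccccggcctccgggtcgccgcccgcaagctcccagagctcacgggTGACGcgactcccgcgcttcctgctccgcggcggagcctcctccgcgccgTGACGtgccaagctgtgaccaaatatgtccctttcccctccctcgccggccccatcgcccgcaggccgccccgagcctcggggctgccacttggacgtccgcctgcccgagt
Pfkfb3, downstream start, chr2:11502041-11502340, minus strand: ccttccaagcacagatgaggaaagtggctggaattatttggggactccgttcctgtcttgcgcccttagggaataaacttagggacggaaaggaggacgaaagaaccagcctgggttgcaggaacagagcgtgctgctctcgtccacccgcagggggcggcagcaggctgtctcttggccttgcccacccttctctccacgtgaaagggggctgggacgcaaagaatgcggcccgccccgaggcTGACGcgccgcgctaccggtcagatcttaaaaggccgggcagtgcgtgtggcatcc

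The Baz2b window held 1 full CRE, whose first base lies 24 bases before the start. The longest Pfkfb3 transcript had 2 matches to one arm, 112 and 62 bases before its start, and the downstream Pfkfb3 start had 1 match, 6 bases before it. Of all 32851 RefSeq windows of this length, 1.79% held the full CRE, 12.5% held it with at most 1 mismatch and 20.8% held at least one arm. The windows of Cblb and Bcl3 held none of these letters, which says nothing of the sites elsewhere in those genes. The peak lists are in build mm8, no coordinate was converted, and the sequence under the peaks themselves was not analysed here. Whether the sites of Cblb, Crcp and Bcl3 lie in exons, introns or upstream was not analysed here either. The starts kept their spacing between the builds: the 2 Pfkfb3 starts lie 51839 bp apart in both builds, and the Baz2b start lies 226378 bp from the far end of the gene in both. Counted from the start, the Baz2b full CRE, the Pfkfb3 match at 62 bases and the Pfkfb3 match at 6 bases fell within the stretches that the listed intervals cover in mm8, and the match at 112 bases fell outside.

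For each site the deposited lists give a height, the tallest stack of reads inside the interval, scaled to sequencing depth and written in RPM. The height in both lists is that of the fasted pool. A re-fed height was derived, because each site's name carries its rank by the average of both heights. The rank, the fasted height and the rows at hand of the study's height table fixed a single whole number of re-fed reads for 5637 of the 6022 sites without such a row, among them all 18 sites described here. The steps between heights correspond to about 42363292 reads in the fasted pool and 68358178 in the re-fed pool. Intervals beside ratios are exact binomial (Clopper-Pearson) intervals at 95% on the stacked reads and cover counting error only. In whole liver, fewer cells with CREB at a site and less CREB per cell cannot be told apart.

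Cblb, an E3 ubiquitin ligase that dampens receptor signalling, was induced in fasting and had its 4 sites spread over 98.2 kb of chromosome 16. Its first site, chr16:51950739-51950849, was called only in the fasted list and stood at 0.472 RPM in the fasted pool and 0.234 RPM in the re-fed pool. Its second site, chr16:51963210-51963320, was also fasted only, with 0.449 RPM fasted and 0.307 RPM re-fed. The third site, chr16:51980682-51980792, was fasted only as well, with 0.567 RPM fasted and the same 0.307 RPM re-fed. The 3 fasted-only sites stood higher in the fasted pool, with ratios of 2.02 (0.993 to 4.16), 1.46 (0.742 to 2.85) and 1.84 (0.984 to 3.48), intervals that all include 1. The fourth site, chr16:52048916-52049028, was called in both conditions, with 0.496 RPM fasted and 0.453 RPM re-fed, a ratio of 1.09 (0.597 to 1.96). Its fasted height lay within the range of the other three, whereas its re-fed height was the highest of the 4. The gaps between neighbouring sites, from midpoint to midpoint, were 12471, 17472 and 68235 bp, and no other CREB site lay within 150 kb on either side. The nearest other sites were 1599 kb below and 1449 kb above, so that these 4 weak sites stood alone on a long stretch of the chromosome.

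Crcp, a protein known both as a component of the CGRP receptor and as a subunit of RNA polymerase III, was induced and had the most compact set, 4 sites within 10.3 kb of chromosome 5. Its first site, chr5:130308503-130308632, was called in both conditions, with 0.708 RPM fasted and 0.731 RPM re-fed. It ranked 2917 by average height, the best rank of the 18 sites. The second site, chr5:130309016-130309155, lay 518 bp further on and was also called in both, with 0.543 RPM fasted and 0.541 RPM re-fed. These neighbours had ratios of 0.968 (0.594 to 1.55) and 1.00 (0.569 to 1.73), heights that could not be told apart between the pools at this depth. The third site, chr5:130316205-130316313, was called only in the re-fed list although its heights, 0.354 RPM fasted and 0.380 RPM re-fed, gave a ratio of 0.931 (0.458 to 1.82). The fourth site, chr5:130318765-130318884, was called in both, with 0.567 RPM fasted and 0.410 RPM re-fed, and had the highest ratio of the gene, 1.38 (0.767 to 2.47), an interval that includes the other 3. The later gaps were 7174 and 2566 bp. RefSeq windows for Crcp were not used here.

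Baz2b, a bromodomain protein of chromatin, was induced and had 2 re-fed-only sites at or near its start and 2 fasted-only sites further into the gene. The gene is on the minus strand of chromosome 2, so that the site with the highest coordinate comes first in transcription. That site, chr2:59926560-59926668, covered the annotated start and was called only in the re-fed list, with 0.307 RPM fasted and 0.439 RPM re-fed. The next, chr2:59925208-59925316, lay in the gene body, 1352 bp from it between midpoints, and was also re-fed only, with 0.236 RPM fasted and 0.483 RPM re-fed. Their ratios were 0.699 (0.335 to 1.38) and 0.489 (0.215 to 1.02), the latter the lowest of the 18 sites. The third in transcription order, chr2:59891322-59891432, lay 33885 bp further on and was fasted only, with 0.590 RPM fasted and 0.395 RPM re-fed, a ratio of 1.49 (0.832 to 2.67). The last, chr2:59862906-59863016, another 28416 bp on, was fasted only with 0.567 RPM fasted and 0.278 RPM re-fed, a ratio of 2.04 (1.07 to 3.94). Of the 4 intervals only that of this last site excludes 1. Fasted heights of the 4 sites differed 2.5-fold, the widest spread of the 5 genes, and no Baz2b site was called in both conditions. The full CRE printed above lies at the start that carried a re-fed-only call. The only other CREB site within 150 kb, 84.1 kb above, was called in both conditions and is listed for March7.

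Bcl3, an IκB family protein that acts as a nuclear co-regulator of NF-κB dimers, was repressed in fasting and had 3 sites evenly set over 13.1 kb of chromosome 7. Its first site, chr7:18976395-18976503, was called only in the re-fed list, with 0.260 RPM fasted and 0.468 RPM re-fed, a ratio of 0.555 (0.252 to 1.13). The second, chr7:18982861-18982971, was fasted only, with 0.590 RPM fasted and 0.263 RPM re-fed, a ratio of 2.24 (1.17 to 4.36), the highest of the 18 sites. The ratios at these neighbours, 6467 bp apart, lay on opposite sides of 1, although the interval of the first site includes 1. The third site, chr7:18989535-18989645, 6674 bp further on, was fasted only although its re-fed height of 0.439 RPM exceeded its fasted height of 0.425 RPM, a ratio of 0.968 (0.508 to 1.79). This combination was uncommon: of the 1627 fasted-only sites with a derived ratio in the rank range of the 5 genes, 10 (0.615%) had a ratio of at most 1. That site was singled out after its values were seen. Bcl3 lay in the densest neighbourhood, with 7 CREB sites not listed for it within 150 kb and the nearest 10.9 kb above.

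Pfkfb3, the enzyme that makes fructose 2,6-bisphosphate and so favours glycolysis, was repressed and had 3 sites over 51.9 kb of chromosome 2, placed at both of its annotated starts and between them. The gene is on the minus strand. The site at the start of the longest transcript, chr2:11471776-11471886, was fasted only, with 0.496 RPM fasted and 0.366 RPM re-fed. The site between the starts, chr2:11453455-11453565, lies within the longest transcript and was fasted only, with 0.519 RPM fasted and 0.351 RPM re-fed. The site at the downstream start, from which most of the listed transcripts begin, was chr2:11419903-11420017 and was called in both conditions, with 0.614 RPM fasted and 0.527 RPM re-fed. The ratios were 1.36, 1.48 and 1.17 in that order, and all 3 intervals include 1. The gaps were 18321 and 33550 bp. Beyond them, 2 further CREB sites, listed for Rbm17, lay 44.1 and 49.3 kb above the highest one, and none lay within 150 kb below.

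Across the 5 genes, 5 of 18 sites (27.8%, Wilson interval at 95% from 12.5% to 50.9%) were called in both conditions, 9 (50.0%) only in the fasted list and 4 (22.2%) only in the re-fed list. Over all merged sites the shares were 61.5%, 29% and 9.43%. The 5 genes' sites are weak ones, so a fairer background is the 4559 merged sites with ranks from 2917 to 7475, the range of the 18, which includes them. There 40.6% were called in both conditions, 44.9% only in the fasted list and 14.5% only in the re-fed list. This range is not matched to the 18 by rank, because their median rank was 5905, against 5196 in the range. Calls varied with rank within the range, where sites called in both had a median rank of 4167. The fasted-only sites there had 5833 and the re-fed-only sites 6103. Whether rank accounts for the lower share called in both among the 18 was not tested. The interval treats the 18 sites as independent draws, which sites of 5 selected genes are not. No test was made, because the genes were chosen by their number of called sites. The 12 sites of the induced genes had 4 calls in both conditions, 5 fasted-only and 3 re-fed-only calls, and the 6 sites of the repressed genes had 1, 4 and 1. Crcp alone supplied 3 of the 5 sites called in both conditions, and without it the share was 14.3%.

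**Figure D1:**
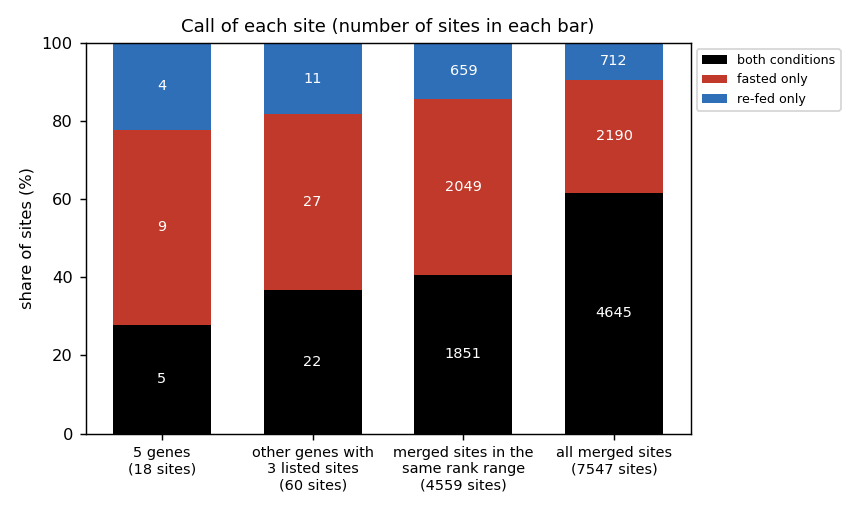
Stacked bars give the share of sites in percent that were called in both conditions, only in the fasted list or only in the re-fed list, with the number of sites written in each bar. The sets are the 18 sites of the 5 genes, the 60 sites of 20 other fasting-regulated genes with 3 listed sites, the 4559 merged sites in the same rank range and all 7547 merged sites, and the share called in both rises in that order from 27.8% to 61.5%.

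The heights placed the 18 sites among the weaker part of the CREB sites. The median fasted height was 0.508 RPM, against 0.708 RPM over all merged sites and 0.567 RPM in the same rank range. The lowest of the 18 was 0.236 RPM and the highest 0.708 RPM, and all 18 lay below the 0.732 RPM median of the fasted list. By average height, 1 of the 18 was above the middle of the ranking (the first Crcp site), none was in the top 25% and 12 were in the bottom 25%. The first Cblb site was the last of them, at rank 7475 with an average height of 0.353 RPM. In the deposited values, 11 of the 18 ranked better by average height than by fasted height, as did 2196 of the 4559 sites of the rank range. The Baz2b site in the gene body near the start ranked 7359 by average and 7541 by fasted height, whereas the last Baz2b site ranked 6088 by average and, with ties shared, about 5152 by fasted height. The width of the intervals followed the call, at 111 bp for each of the 9 fasted-only sites, 109 bp for each of the 4 re-fed-only sites and 113 to 140 bp for the 5 sites called in both, and the single-condition widths were the same throughout the rank range.

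**Figure D2:**
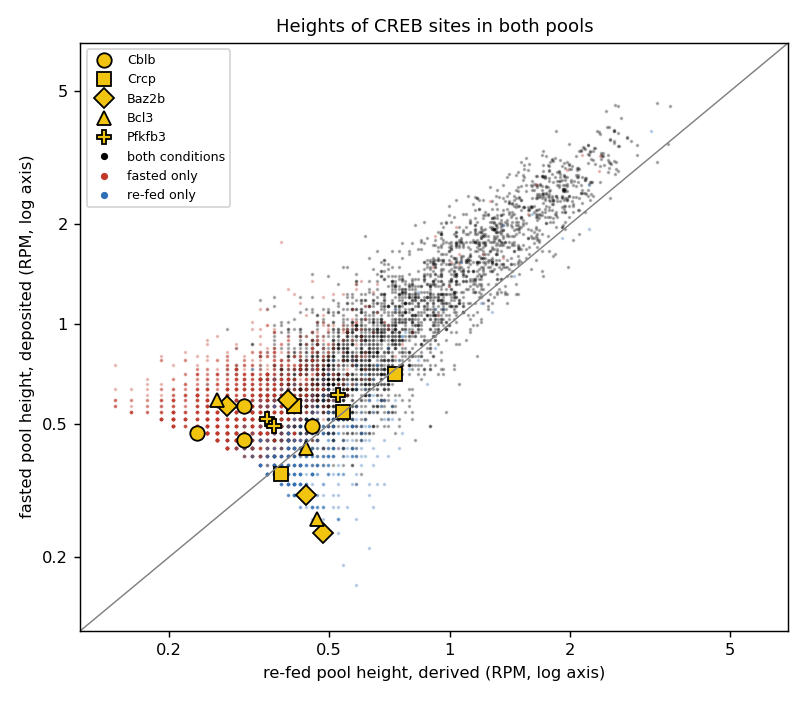
Each dot is a merged CREB site with a single derived re-fed height (5637 sites), with the derived re-fed height in RPM on the horizontal log axis and the deposited fasted height in RPM on the vertical log axis, coloured by call. The grey line marks equal heights, and yellow symbols are the 18 sites of the 5 genes, which sit at the lower left between 0.236 and 0.708 RPM fasted and on both sides of the line.

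The median fasted to re-fed ratio over the 18 sites was 1.26, with 12 of 18 above 1 (66.7%). In the rank range the median was 1.45 over 3625 sites, of which 84.9% were above 1, and over all 5637 sites with a derived ratio the median was 1.42. Of the 18 intervals, 16 include 1 and 2 lie above it, those of the last Baz2b site and the second Bcl3 site. None lies wholly below 1, and 15 of the 18 include the 1.45 of the rank range. The intervals that do not, those of the 2 re-fed-only Baz2b sites and the first Bcl3 site, lie wholly below 1.45. At this depth, with 10 to 30 fasted and 16 to 50 re-fed reads per site, a difference between the pools was therefore not detectable at most sites. The study tested all merged sites across the individual libraries and found few that differed, and none of these 18 was among them. It also states that a call missing in one condition is not enough to show differential binding. Split by call, the medians were 1.09 at the 5 sites called in both (1.29 in the rank range), 1.49 at the 9 fasted-only sites (1.78) and 0.627 at the 4 re-fed-only sites (0.915). Each of these lay on the lower side of its background, but the calls depend on the heights themselves and the sets hold only 4 to 9 sites. This shared direction was not tested. The median ratio per site was 1.24 for the 12 sites of induced genes and 1.26 for the 6 sites of repressed genes. Only sites above a minimum average height were kept in the lists, so a site with a low fasted height near that limit had to have a high re-fed one, and the 4 lowest fasted heights of the 18 were the 4 re-fed-only sites.

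**Figure D3:**
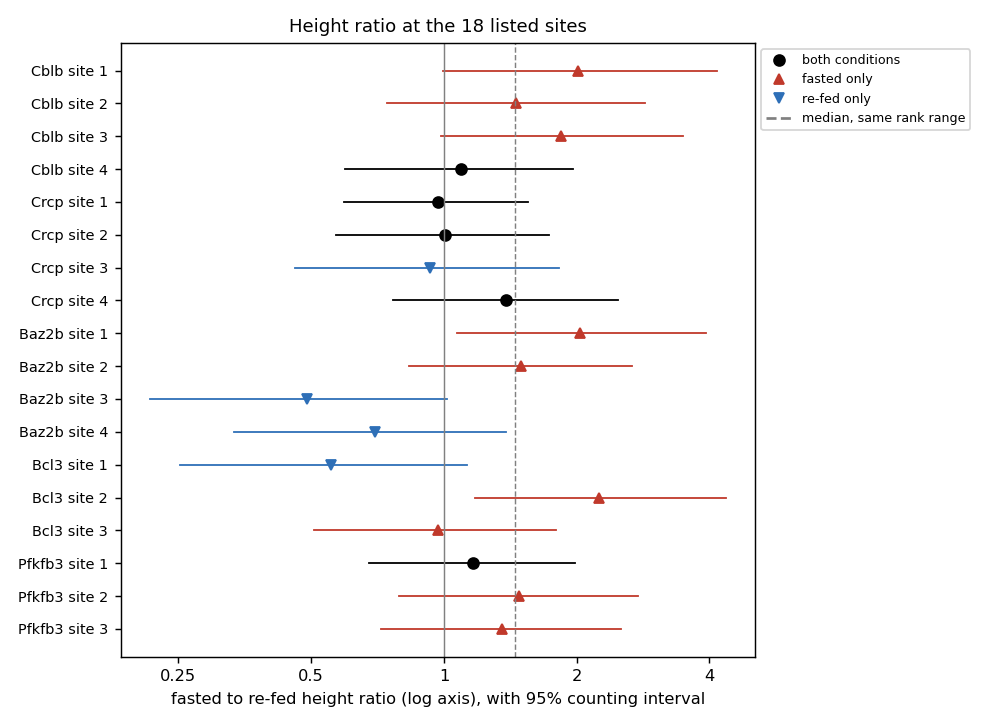
Symbols give fasted over re-fed height at each of the 18 sites on a log axis, numbered within a gene by coordinate, with lines for 95% counting intervals and colour and shape for the call. The solid grey line marks 1 and the dashed line the median of 1.45 in the same rank range, and 16 of the 18 lines cross the solid one.

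Spacing differed between the genes more than height did. The 13 gaps between neighbouring sites had a median of 12471 bp and ran from 518 to 68235 bp, and the median was 6924 bp without Cblb and 7174 bp without Pfkfb3. No other merged site lay between the outermost sites of any of the 5 genes, so that each set was an unbroken run on its chromosome. Among the 7484 runs of 4 neighbouring merged sites in the genome, 0.187% were as short as that of Crcp, 6.35% as short as that of Baz2b and 12.9% as short as that of Cblb. Among the 7505 runs of 3 sites, 2.32% were as short as that of Bcl3 and 13.9% as short as that of Pfkfb3. The genes were selected for several sites within a gene or just upstream of it, which favours short runs. These percentages are therefore descriptions and no measure of rarity. Of the 18 sites, 2 (11.1%, Wilson interval 3.10% to 32.8%), the first pair at Crcp, had another CREB site within 1000 bp, a share near the 13.7% of all merged sites.

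The 20 other fasting-regulated genes with at least 3 listed sites had exactly 3 each, 60 sites in all, while 3 of the 5 genes had 4, and a span between outermost sites grows with their number. Span is also limited by gene length, because a listed site lies in the gene body or just upstream, and gene lengths were not compared. The median span of the 20 was 8.21 kb, against 51.9 kb for the 5 genes. A longer span than that of Cblb, Baz2b or Pfkfb3 was found in 1 of the 20 for each, than that of Crcp in 6 and than that of Bcl3 in 5. The highest site of a gene had a median fasted height of 0.944 RPM among the 20 and of 0.590 RPM among the 5. For Cblb, Baz2b, Bcl3 and Pfkfb3 only 2 of the 20 had a lower highest site, and for Crcp 4 had. In the top 25% of the ranking were 7 of the 60 sites and none of the 18, and 29 of the 60 (48.3%) had another CREB site within 1000 bp. Sites called in both conditions made up 36.7% of the 60 (25.6% to 49.3%), and at least one such site was present in 16 of the 20 genes and in 3 of the 5 (Cblb, Crcp and Pfkfb3). The median ratio was 1.61 over the 54 of the 60 sites with a derived value. These differences are descriptions, since both sets were selected on their sites.

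**Figure D4:**
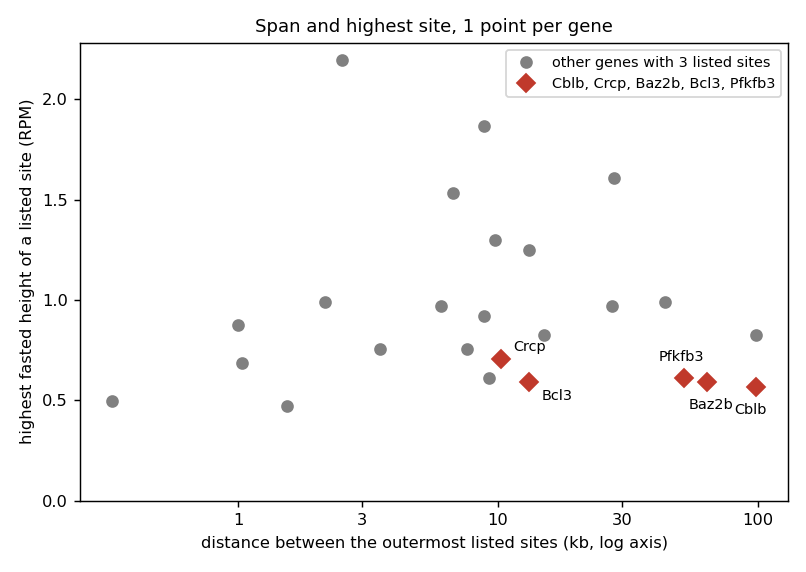
Each point is a gene, with the distance between its outermost listed CREB sites in kb on the horizontal log axis and the highest fasted height among its listed sites in RPM on the vertical axis. Red diamonds are the 5 genes and grey circles the 20 others, and Cblb, Baz2b and Pfkfb3 combine spans of at least 51.9 kb with highest sites of at most 0.614 RPM.

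Relatives of Cblb, Baz2b, Bcl3 and Pfkfb3 were looked up among the genes listed as regulated, and none were looked up for Crcp. Of the other PFKFB enzymes, the other CBL ligases and the other BAZ chromatin proteins only Baz1a was listed, as repressed and without a CREB site. For Bcl3, the genes looked up were Nfkb1, Nfkb2, Rela, Relb, Rel and Nfkbia, and no further IκB relatives were. Among these only Nfkbia, the inhibitor that holds NF-κB in the cytoplasm, was listed. It was listed as induced, with 1 site that was called only in the fasted list at 0.543 RPM. Of all 942 listed genes, 348 had 1 site, 95 had 2, 22 had 3 and 3 had 4, so listed genes with and without a site were both common.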

How the data were processed

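The authors mapped the reads of each CREB library to mm8, discarded redundant reads, pooled the 5 libraries of a condition, called peaks with HOMER 3.0 and kept peaks that were called without any single library and were above a minimum average height. The deposited signal is the fasted pool's tallest stack of extended reads in a peak, in RPM, and no list holds a re-fed height, so re-fed reads were bounded by rank as described. Of 300 sites of the height table treated as unknown, all lay within the bounds, and each of the 279 with a single number equalled it. The height table and the sheet of all bound genes were used as shortened copies. Peaks of both lists with the same name were merged into one site. The members and lists were chosen with earlier results of these data known, so heights, calls and spacing are described without tests. The genes named are the 5, the listed neighbours beside them and their families. Alternatives covered merging of sites, height, the bounds, spacing, distance and leaving out each gene. GR and CEBPB libraries were not analysed here. Computation used scipy 1.17.1, pandas 2.3.3 and numpy 2.4.6 under Python 3.11.15, with figures from matplotlib 3.10.9.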

Additional observations from a re-analysis of the deposited data

How the results depend on the processing

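The 95% intervals over 18 sites or 13 gaps were wide, at 12.5% to 50.9% for the share called in both, 0.425 to 0.567 RPM for the median height, 0.968 to 1.49 for the median ratio and 2566 to 33550 bp for the median gap. The interval of the share is a Wilson interval, and those of the medians are binomial intervals on the ordered values. All of them treat sites or gaps of the same selected genes as independent draws, which they are not. That 30 of 32 alternative values fell inside these wide intervals therefore says little of stability. Taking only the highest site of each gene moved the median fasted height from 0.508 to 0.590 RPM, and a distance of 500 bp in place of 1000 bp left 0% of the sites with a close neighbour, because the closest pair lies 518 bp apart. Leaving out one gene at a time gave 14.3% to 35.7% of sites called in both conditions, median heights of 0.496 to 0.531 RPM, median ratios of 1.08 to 1.41 and median gaps of 6924 to 17897 bp. Without Crcp the share called in both was lowest, and without Cblb the gap was shortest. No site reached the median height of the fasted list, so that filter gave no value. No paired analysis was possible because the deposited lists hold pooled values and the rows used here of the study's height table cover none of these 18 sites. For the same reason no library was left out. The 10 to 50 reads behind each height limit every ratio of a single site.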
